A study of Rattus norvegicus with 6 samples.

Results

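The transcription factors that give granulosa cells their identity were examined in the ovaries of neonatal rats that had received lipopolysaccharide (LPS) or saline. The genes were Foxl2, Wt1, Lhx9, Nr5a1, Nr5a2, Nr0b1, Gata4 and Gata6, and a probe was taken for a gene when the RefSeq accession listed for it carried that symbol. Of these 8 genes, 7 had a probe, with 11 probes between them, among 15154 genes named on the array. No probe was matched to Foxl2, which was not analysed here.

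Each female Wistar pup had 2 intraperitoneal injections, the first on postnatal day (PND) 3 and the second on PND 5. The LPS group was given LPS of Salmonella Enteritidis at 0.05 mg/kg, and the control group pyrogen-free saline in a matched volume. LPS comes from the outer wall of Gram-negative bacteria and sets off an immune response. Ovaries were collected on PND 7, and RNA from 3 LPS-treated and 3 saline-treated samples was hybridized to 6 single-colour Agilent arrays. The methods state that each litter was assigned as a whole to 1 treatment. The ovaries came from several pups of more than 1 litter in each treatment, but which pups are behind each array was not given in the sources used here. Arrays of a group may thus hold litter-mates, which the fits treat as independent, so that a p-value measures the spread between these samples only. All values are from whole ovary, in which fewer cells of a type and less RNA per cell cannot be told apart.

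Granulosa cells surround and feed the oocyte, and descend from the somatic cells of the early gonad. The LIM homeobox factor Lhx9, the zinc finger factor Wt1 and the nuclear receptor Nr5a1 (steroidogenic factor 1) act in that early gonad, while Gata4, Gata6, Nr5a2 (liver receptor homolog 1) and Foxl2 act in follicle growth and steroid production. Nr5a1 also drives the adrenal cortex, where the repressor Nr0b1 (DAX1) is found with it, so that neither gene belongs to the ovary alone.

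The 3 nuclear receptors behaved differently across the arrays, and a window of 250 bases before the transcript start used by the RefSeq promoter table is shown for each for that reason, to set the promoters of Nr5a1 and Nr0b1, whose signals stood highest on the same arrays, beside that of Nr5a2, the close relative of Nr5a1. The sequences are RefSeq entries for the GRCr8 assembly and are written from 5′ to 3′ on the strand of the gene. They lie at chr3:42896047-42896296 (minus strand) for Nr5a1, at chrX:54707408-54707657 (plus strand) for Nr0b1 and at chr13:50984939-50985188 (minus strand) for Nr5a2. That start lies inside the annotated span of 2 of the genes, so that 63 bases of the Nr5a1 window and 169 of the Nr5a2 window fall within the gene, and 0 of the Nr0b1 window. Capitals mark matches, on either strand, to the motifs named after them.
Nr5a1: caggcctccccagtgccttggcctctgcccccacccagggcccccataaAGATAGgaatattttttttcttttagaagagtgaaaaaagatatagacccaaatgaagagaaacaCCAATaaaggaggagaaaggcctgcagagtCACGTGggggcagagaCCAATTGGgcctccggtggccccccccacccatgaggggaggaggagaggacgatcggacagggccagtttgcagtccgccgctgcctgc
Nr0b1: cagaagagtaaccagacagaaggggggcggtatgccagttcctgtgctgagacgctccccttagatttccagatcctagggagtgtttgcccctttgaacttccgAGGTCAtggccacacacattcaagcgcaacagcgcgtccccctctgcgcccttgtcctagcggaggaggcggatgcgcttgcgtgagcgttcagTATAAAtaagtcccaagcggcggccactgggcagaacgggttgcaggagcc
Nr5a2: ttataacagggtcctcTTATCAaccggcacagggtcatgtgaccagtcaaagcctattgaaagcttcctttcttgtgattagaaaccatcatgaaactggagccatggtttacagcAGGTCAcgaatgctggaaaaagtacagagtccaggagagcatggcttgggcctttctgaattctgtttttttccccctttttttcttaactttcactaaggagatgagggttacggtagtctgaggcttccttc

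In these windows 10 motifs were searched. They were the E-box CACGTG, the nuclear receptor half-site AGGTCA, the longer NR5A site CAAGGTCA and its variant form CAAGGCCA, the GATA form TGATAA and its variants, which are AGATAA in one case and AGATAG in the other, the CCAAT box CCAAT, the TATA box TATAAA and the LIM homeobox core TAATTA, of which AGGTCA lies within CAAGGTCA. The window of Nr5a1 held CACGTG, which begins 106 bases before that transcript start and is present in 5.80% of 27457 promoter windows of this length. It also held AGATAG (7.61% of windows) and CCAAT at 3 positions (34.3% of windows). The window of Nr0b1 held AGGTCA 145 bases before the start (13.7% of windows) and TATAAA 51 bases before it (13.1% of windows). The window of Nr5a2 held AGGTCA 134 bases before the transcript start, within the annotated gene, and TGATAA, on the opposite strand, 234 bases before it (7.87% of windows). No motif was found in both the Nr5a1 and the Nr0b1 window. A match describes the letters only, and binding was not measured.

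Signals were the background-subtracted processed signals of the scanner software, on a log2 scale scaled so that 0 is the 75th percentile over all probes on that array. Levels of different probes cannot be compared. For a gene with several probes the brightest was used, and each of these 7 probes rose well above background in all 6 samples. None of the 7 genes met the criterion of the methods, a change of 2-fold or more with an unadjusted p under 0.05, which 1.69% of all 30367 probes passed in limma. After adjustment none remained under 0.05 (0% of all probes, the smallest adjusted p of any probe being 0.271), and none had an unadjusted p under 0.05, against 16.5% of all probes. The adjusted p of the 7 genes ran from 0.420 to 0.982. On the probe used, the groups overlapped for each of the 7 genes. By contrast the groups did not overlap for 11.4% of the probes that rose well above background everywhere and for 23.4% of all probes. The fitted difference was positive for 4 genes and negative for 3, with a median of 0.12 on the log2 scale, beside 0.02 for the probes that rose well above background everywhere, and it turned to -0.79 with the slide row as a block. For groups of this size, 0.1 is the smallest p that an exact permutation test can give.

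**Figure D1:**
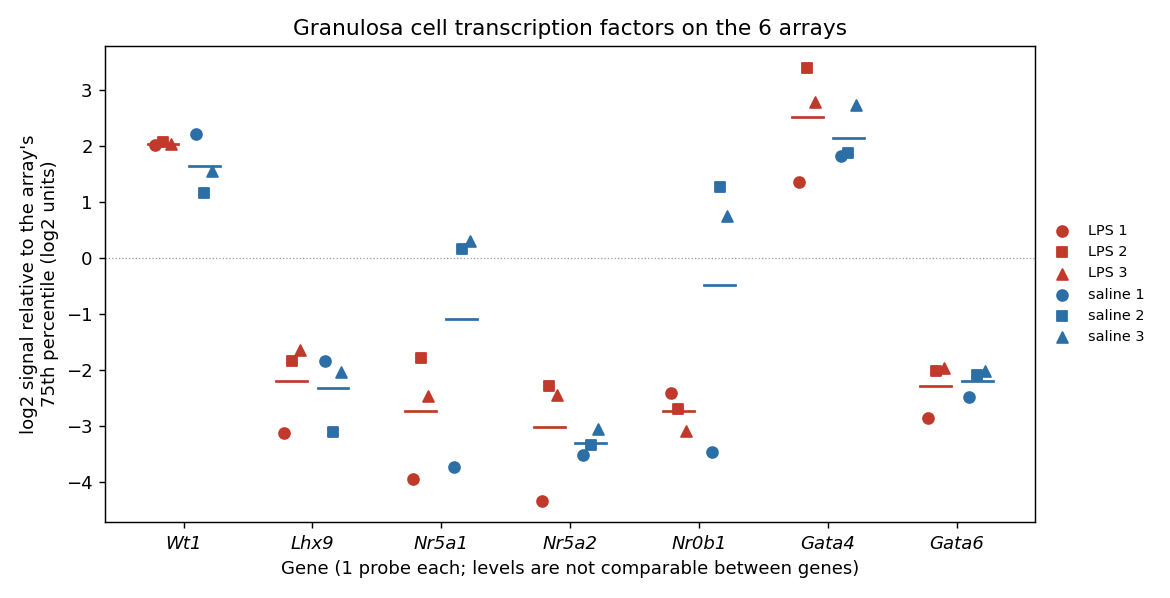
Log2 signal (y axis, log2 units relative to the 75th percentile of the array) of the 7 genes (x axis), 1 probe each. Each point is an array, circles, squares and triangles are replicates 1, 2 and 3, and bars are group means. Nr5a1 and Nr0b1 stand highest on saline replicates 2 and 3, and LPS replicate 1 (red circle) is the lowest array for 5 of the 7 genes.

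Wt1, a zinc finger factor of the early gonad that persists in granulosa and surface epithelial cells, was the most even of the genes within the LPS group. Its brightest probe read 2.01, 2.07 and 2.04 on LPS replicates 1, 2 and 3 and 2.21, 1.16 and 1.55 on saline replicates 1, 2 and 3. Saline replicate 1 was thus the highest of the 6 arrays and saline replicate 2 the lowest, and the difference of 0.40 ± 0.28 (SE, n = 3 arrays per group) had an adjusted p of 0.615 in limma. The second probe gave 0.91, 1.37 and 1.42 on the LPS arrays against 0.92, 0.18 and 0.80 on the saline arrays. On the third the LPS values of 0.69, 1.10 and 1.26 all lay above the saline values of 0.64, -0.13 and 0.50, closely so for replicate 1 of the treatments. The fitted difference of the second probe was 0.60 ± 0.26 (adjusted p = 0.318 in limma). That of the third was 0.68 ± 0.27 (unadjusted p = 0.042 and adjusted p = 0.290 in limma). Thus the 3 probes of Wt1 each had a positive difference of less than 2-fold. All 3 probes were lowest on saline replicate 2, and with saline replicate 1 as the lone control array the brightest probe turned to -0.18 ± 0.24.

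Lhx9, the LIM homeobox factor of the early gonad and of ovarian somatic cells, varied as much within each treatment as between them. The values were -3.12, -1.85 and -1.66 on the LPS arrays against -1.84, -3.11 and -2.04 on the saline arrays, so that LPS replicate 1 and saline replicate 2 were low and the other 4 arrays lay close together. The difference was 0.12 ± 0.49 (adjusted p = 0.982 in limma). A second, dimmer probe of Lhx9 was well above background on 2 LPS arrays and 1 saline array.

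Nr5a1, the receptor that switches on steroid-producing enzymes, had the second largest spread of the 7 genes. It read -3.94, -1.78 and -2.48 on the LPS arrays against -3.73, 0.15 and 0.30 on the saline arrays. Saline replicates 2 and 3 were therefore the highest arrays and differed from saline replicate 1 by 3.96 on the log2 scale, more than the treatments differed (-1.64 ± 1.15, adjusted p = 0.609 in limma). Among the other 4 arrays, LPS replicates 2 and 3 lay above LPS replicate 1 and saline replicate 1, which were close together.

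Nr0b1, the repressor that binds the Nr5a1 protein, showed the same 2 arrays on top. It read -2.41, -2.70 and -3.09 on the LPS arrays against -3.47, 1.27 and 0.75 on the saline arrays, with a difference of -2.25 ± 1.18 (adjusted p = 0.420 in limma). Saline replicate 1, at the bottom of all 6 arrays, was 4.48 below the mean of saline replicates 2 and 3. The LPS arrays differed little among themselves, with an SD of 0.34.

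Markers of the adrenal gland, which lies near the ovary in the neonate and shares Nr5a1 and Nr0b1 with it, stood highest on the same arrays. The summed signal of the 6 adrenal cortex markers was 0.74 to 1.55 times the 75th percentile on the LPS arrays, 1.25 on saline replicate 1, 163 on saline replicate 2 and 218 on saline replicate 3. All 6 were highest on saline replicates 2 and 3, as were 13.3% of the probes bright enough to be well above background everywhere, and 3 of them, Cyp11b1, Akr1b7 and the corticotropin receptor Mc2r, did not rise well above background on the LPS arrays or on saline replicate 1. Of the other lists, 4 of 5 endothelial and 2 of 3 red blood cell markers were also highest on those arrays. The endothelial ones include a dim gene that was well above background on no saline array. Cyp21a1, an enzyme of corticosteroid synthesis, read 0.24, -0.59 and -0.95 on the LPS arrays against 0.03, 5.96 and 6.67 on the saline arrays. The 8 adrenal medulla markers with a probe, among them Th and Pnmt of catecholamine synthesis, summed to 2.89 to 5.29 on the LPS arrays and to 5.51, 88.2 and 54.0 on saline replicates 1, 2 and 3. By the criterion of 2-fold and unadjusted p, 5 of the 6 cortex and 6 of the 8 medulla markers were lower in the LPS group, none after adjustment. Without saline replicate 2, and likewise without saline replicate 3, the counts fell to 0 and 1. With the ordinary SE in place of the moderated one of limma they were 0 and 0. The paper names no test for its arrays. Blocking on the slide row leaves 1 LPS array beside the saline arrays. The median difference there was -4.31 for cortex and -2.67 for medulla markers, beside -4.90 and -3.42 in the main fit. The part of adrenal RNA in the values of Nr5a1 and Nr0b1 was not tested. With saline replicate 1 as the lone control array the difference was 1.00 ± 0.89 for Nr5a1 and 0.74 ± 0.35 for Nr0b1. Both were positive there in place of negative. Against saline replicates 2 and 3 alone the difference was -2.96 ± 0.62 for Nr5a1 (adjusted p = 0.183 in limma). For Nr0b1 it was -3.74 ± 0.29 there (adjusted p = 0.00538 in limma). These 2 control arrays had already been seen to be the highest for both genes, so these p-values do not test the treatment. The sign and the call of both genes thus depended on which saline arrays were the control.

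**Figure D2:**
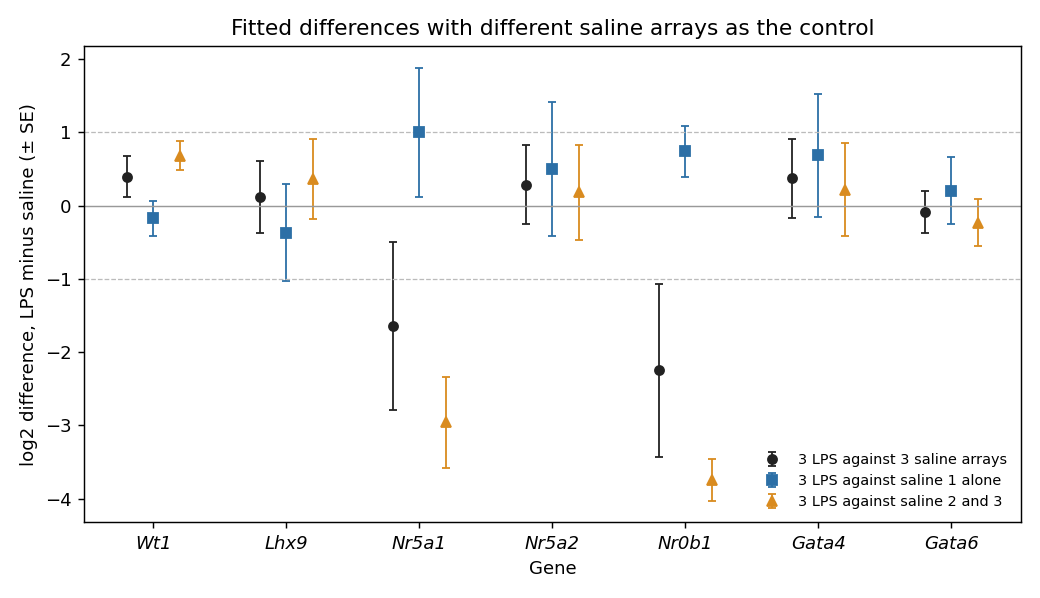
Fitted log2 difference, LPS minus saline (y axis, points with SE), of the 7 genes (x axis) with all 3 saline arrays, with saline replicate 1 alone and with saline replicates 2 and 3 as the control. Dashed lines mark a 2-fold difference. Nr5a1 and Nr0b1 move from 1.00 and 0.74 with saline replicate 1 to -2.96 and -3.74 with the other two saline arrays.

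Nr5a2, which in the ovary is found in granulosa cells, stayed apart from its relative. It read -4.34, -2.29 and -2.45 on the LPS arrays against -3.52, -3.35 and -3.06 on the saline arrays. The saline arrays were close together (SD 0.23), and the LPS arrays lay on both sides of them, replicates 2 and 3 above and replicate 1 below. The difference was 0.29 ± 0.54 (adjusted p = 0.929 in limma). A dimmer probe of Nr5a2 was well above background on LPS replicates 2 and 3 only, and no fold is given for it.

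Gata4, the zinc finger factor that switches on inhibin and anti-Müllerian hormone genes together with Nr5a1, followed the same order on the LPS arrays. The mean of its 10 spots was 1.36, 3.40 and 2.78 on the LPS arrays against 1.82, 1.87 and 2.72 on the saline arrays, with 2 spots on saline replicate 1 left out as outliers. LPS replicate 2 was the highest and LPS replicate 1 the lowest of the 6, and the difference was 0.37 ± 0.54 (adjusted p = 0.887 in limma). Gata6, which overlaps with Gata4 in function, had the narrowest range of all, 0.89 on the log2 scale. It read -2.86, -2.02 and -1.97 on the LPS arrays against -2.49, -2.09 and -2.01 on the saline arrays, a difference of -0.09 ± 0.29 (adjusted p = 0.976 in limma), which was positive without scaling between arrays.

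LPS replicate 1 was the lowest of the 6 arrays for Lhx9, Nr5a1, Nr5a2, Gata4 and Gata6, that is for 5 of 7 genes, compared with 19.9% of the probes that rose well above background everywhere. For Lhx9 the margin was small, -3.12 against -3.11 on saline replicate 2, and its dim probe was lowest on saline replicate 2. The low place of LPS replicate 1 was looked for after the values had been seen. Granulosa cell markers stood the same way, since 9 of the 12 with a probe were lowest on LPS replicate 1. Their summed signal was 24.3, 91.0 and 65.6 times the 75th percentile on LPS replicates 1, 2 and 3 and 42.2, 49.0 and 77.6 on saline replicates 1, 2 and 3. Inha, the alpha subunit of inhibin, read 2.91, 5.08 and 4.49 on the LPS arrays against 3.73, 4.06 and 4.85 on the saline arrays, and Amh, the anti-Müllerian hormone of growing follicles, 1.98, 4.29 and 3.54 and then 3.34, 3.23 and 4.11. The 10 oocyte markers, with Zp3 of the egg coat the brightest, summed to 18.9, 50.9 and 42.1 on the LPS arrays and to 25.2, 21.7 and 36.4 on the saline arrays. Granulosa cell and oocyte transcripts, which define the labelled tissue, were thus present on each array.

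Markers of the ovarian surface and of the oviduct stood the other way. The 6 surface epithelium and mesothelium markers, led by Krt19 and Msln, summed to 60.7, 39.2 and 31.8 on the LPS arrays and to 59.1, 24.0 and 31.3 on the saline arrays. For the 3 oviduct markers, with the ciliated cell factor Foxj1 the brightest, the sums were 23.0, 12.1 and 12.7, then 23.8, 8.15 and 10.6. Both were thus highest on LPS replicate 1 and saline replicate 1, the arrays on which Nr5a1, Nr5a2, Gata4 and Gata6 were lowest in their group. Their part in the values of the transcription factors was not tested. Without LPS replicate 1 the difference rose to 0.94 ± 0.22 for Nr5a2 (adjusted p = 0.196 in limma) and to 0.95 ± 0.36 for Gata4 (adjusted p = 0.206 in limma), both short of 2-fold.

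**Figure D3:**
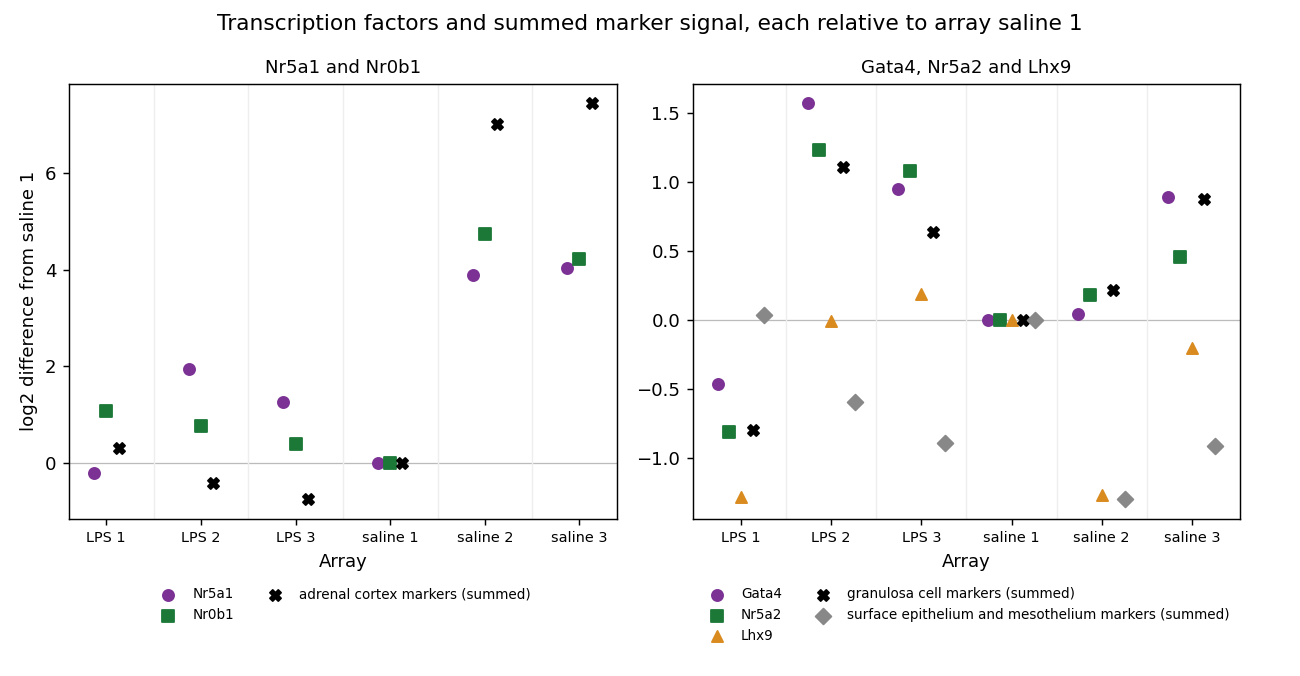
Log2 difference of each array from saline replicate 1 (y axis) for transcription factors and for the summed signal of marker genes, by array (x axis), with each point 1 array. Left, Nr5a1 and Nr0b1 stand highest on saline replicates 2 and 3, as do adrenal cortex markers. Right, Gata4 and Nr5a2 are lowest on LPS replicate 1 and highest on LPS replicate 2, as are granulosa cell markers, while surface epithelium markers are highest on replicate 1 of each treatment.

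The slide position split the arrays as well. The 3 saline arrays shared a row of the slide with LPS replicate 1, and LPS replicates 2 and 3 occupied the other row. Within that row, LPS replicate 1 minus the saline mean was 0.37 for Wt1, -0.79 for Lhx9, -2.85 for Nr5a1, -1.03 for Nr5a2, -1.92 for Nr0b1, -0.78 for Gata4 and -0.66 for Gata6. Lhx9, Nr5a2 and Gata4 therefore changed sign within the row. Nr5a2 passed the 2-fold and unadjusted p criterion there, lower in LPS (adjusted p = 0.383 in limma), on the strength of 1 LPS array. Of all probes, 1555 passed it with the slide row as a block, against 513 in the main fit. Arrays of the same replicate number deviated together, as did replicates 2 and 3 across numbers, less strongly. With the replicate number as a block Nr5a1 passed the criterion, with a difference of -1.64 ± 0.52 (adjusted p = 0.205 in limma), as did 628 of all probes.

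The genes most like each transcription factor over the 6 arrays were sought among named genes of similar spread that were well above background throughout. For Nr5a1 they were Hsd3b3 (Pearson r = 0.997), Hsd3b1 (r = 0.996), both of the family of 3β-hydroxysteroid dehydrogenases, and Slc41a3 (r = 0.995). For Nr0b1 they were Srxn1 (r = 0.995), Lhfpl5 (r = 0.993) and Mrap (r = 0.992), an accessory protein of the corticotropin receptor and itself one of the adrenal cortex markers. For Gata4 they were Clps (r = 0.995), Hsd17b1 (r = 0.991), the granulosa cell enzyme that makes estradiol, and Ankrd2 (r = 0.990). For Nr5a2 they were Pacc1, Il13ra2 and Fabp3 (r from 0.993 to 0.995) and for Gata6 Ppif, Wdr18 and Ccnk (r from 0.990 to 0.995). Wt1 was closest to Lrrc4, Gas8 and C8h11orf65 (r from 0.985 to 0.994) and Lhx9 to Fmo5, Lzts1 and Camta1 (r from 0.959 to 0.985). These correlations are over 6 arrays that share tissue makeup and scaling, and they were the highest of 148 to 6630 candidates.

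Known target genes of the factors divided in part along the same lines. Of 17 listed, 16 had a probe, 0 passed the 2-fold and unadjusted p criterion and the median difference was -0.17. LPS replicate 1 was the lowest array for 10 of the 16, and saline replicates 2 and 3 were the highest for 7. Those 7 include the 2 targets that were well above background on no array, whose order is one of background values. Targets such as Inha and Amh were also counted among the granulosa cell markers, so the 10 are in part the same genes. Hsd3b1, an enzyme of steroid synthesis in ovary and adrenal alike, read 1.84, 3.91 and 3.58 on the LPS arrays against 2.30, 6.26 and 6.50 on the saline arrays (difference -1.91 ± 1.18, adjusted p = 0.529 in limma). Cyp11a1, the first enzyme of steroid synthesis, and Star, which carries cholesterol into mitochondria, were named after their values were seen. Cyp11a1 read -2.94, -1.01 and -1.54 on the LPS arrays against -2.63, 6.17 and 6.58 on the saline arrays, and Star -2.84, -1.14 and -1.50 and then -3.18, 2.69 and 2.63. Both stood, as Nr5a1 did, far higher on saline replicates 2 and 3 and higher on LPS replicates 2 and 3 than on replicate 1 of either treatment. Inha, Amh and follistatin (Fst, difference 0.01 ± 0.39) were targets without that rise on the saline arrays. Cyp17a1, another listed enzyme of steroid synthesis named after its values were seen, was highest on LPS replicates 2 and 3 instead. It read 0.05, 1.87 and 1.42 on the LPS arrays against -0.43, 0.25 and 0.73 on the saline arrays (difference 0.94 ± 0.52, adjusted p = 0.457 in limma). With the replicate number as a block 4 of the 16 targets passed the criterion, and without saline replicate 1 there were 5.

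Among the 21 regulators with a probe that act with these factors, 3 passed the 2-fold and unadjusted p criterion, against 1.69% of all probes. All 3 were higher in LPS-treated ovaries, and the list was chosen with earlier results of these data known. The list held 24 genes, of which 21 had a probe and 15 rose well above background in every sample, and its median difference was 0.21, with 15 genes positive and 6 negative. Zfpm2 (FOG2), the cofactor that binds Gata4, read -3.60, -3.98 and -3.43 on the LPS arrays against -5.30, -6.24 and -5.81 on the saline arrays, so that the groups did not overlap. The probe was dim, being well above background on all LPS arrays but, of the saline arrays, on replicate 1 only. The fitted difference of 2.11 ± 0.29 (adjusted p = 0.271 in limma) thus rests in part on background values, and it was 0.48 with another background correction and 0.23 with none. Tcf21, a mesenchymal factor that represses Nr5a1 in the gonad, read -1.66, -2.00 and -2.20 on the LPS arrays against -2.76, -3.38 and -2.96 on the saline arrays, again without overlap (difference 1.08 ± 0.24, adjusted p = 0.271 in limma). The groups also did not overlap for 23.4% of all probes and for 11.4% of those well above background everywhere. Esr1, the estrogen receptor alpha of stroma and surface cells, read -1.56, -2.49 and -2.03 and then -2.33, -3.77 and -3.13, with a difference of 1.05 ± 0.41 (adjusted p = 0.287 in limma). Tcf21 and Esr1 also fell short of 2-fold with those other backgrounds, at 0.58 and 0.61 and at 0.39 and 0.42. With saline replicate 1 as the lone control they were 0.80 and 0.30, and Zfpm2 was 1.63. Without saline replicate 2, and likewise without LPS replicate 1, Zfpm2 alone passed the criterion, and without saline replicate 1 there were 6 regulators past it, with neither remaining saline value of Zfpm2 well above background. Without scaling between arrays 6 passed as well. The brightest regulators reported were follistatin, Ctnnb1 (beta-catenin) and Emx2, whose differences were 0.01, 0.24 and 0.41.

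**Figure D4:**
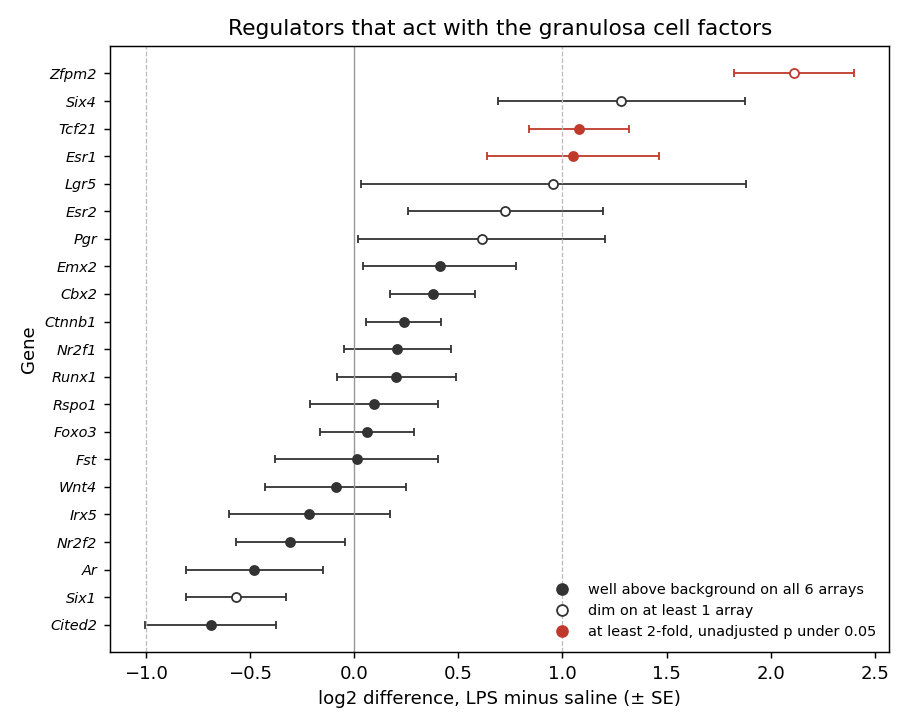
Fitted log2 difference, LPS minus saline (x axis, points with SE), of the 21 regulators with a probe (y axis). Open points were dim on at least 1 array, red marks the 3 genes past the 2-fold and unadjusted p criterion, and dashed lines mark 2-fold. Zfpm2 (2.11), Tcf21 (1.08) and Esr1 (1.05) stand to the right of the 2-fold line.

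The other cell type lists passed the criterion in few places. In the main fit, granulosa cell markers (12 with a probe) and oocyte markers (10) had 0 past it, with medians of 0.20 and 0.46. Neither result was stable. Blocking on the slide row, which leaves 1 LPS array beside the saline arrays, turned these medians to -0.84 and -0.25. Without LPS replicate 1 they were 0.68 and 0.81, with 3 markers past the criterion in each list. The counts that follow are from the main fit. Testis pathway counterparts had 0 of 6 past it and a median of -0.23. Theca and interstitial markers (0 of 5), smooth muscle (0 of 5), endothelial (0 of 5), kidney (0 of 6), surface epithelium (0 of 6) and oviduct markers (0 of 3) had none. Past it were Tcf21 among the 8 stroma and mesenchyme markers, Mrc1 among the 8 macrophage markers (1.19 ± 0.40, higher in LPS) and Slc4a1 among the 3 red blood cell markers (-1.17 ± 0.45, lower in LPS). No gene of these lists had an adjusted p under 0.05 in limma, and several genes stand in more than 1 list.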

How the data were processed

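RNA from 3 ovary samples of LPS-treated and 3 of saline-treated rats was measured on 6 single-colour Agilent arrays, grouped by the sample titles. The authors deposited the spot intensity values of Agilent Feature Extraction 10.5.1.1, which had subtracted the background, and a table whose intensities equal the processed signal within 0.497%. The dye is Cy3 in the methods and biotin in the labels.

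Spots marked as outliers were left out, log2 signals were scaled to the 75th percentile of each array (signal 2379 to 5497), spots of a probe were averaged, and limma 3.58.1 in R 4.3.3 (lmFit, eBayes) compared the groups over 30367 probes with Benjamini-Hochberg adjustment. The SE is the moderated one of limma. Spots well above background made up 66.3% to 76.0% of an array. The number of arrays limits the precision. Symbols came from RefSeq accessions (17998 probes), with the assembly GRCr8 used for names and promoter windows. The procedure was tested on simulated data.

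Genes were named by rule: all the transcription factors with a probe, genes of the lists past the 2-fold and unadjusted p criterion or up to 4 of the brightest, and the 3 genes most like each factor. A listed regulator is not reported here and was left out of its list. The members, gene lists and this rule were chosen with earlier results of these data known. Arrays with the same replicate number deviated together from their group means (correlations across probes of 0.298, 0.215 and 0.254), and the pairing rests on these alone. LPS replicate 2 with saline replicate 3 gave 0.160, and LPS replicate 3 with saline replicate 2 gave 0.068. Pairs of unlike number that held a replicate 1 were negative. In all, 20 alternatives covered background, scaling, dim and outlier spots, test, slide row, replicate block, choice of probe, and arrays left out.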

Additional observations from a re-analysis of the deposited data

How the results depend on the processing

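The count of transcription factors past the 2-fold and unadjusted p criterion, 0 of 7, became 1 with normexp background correction, 2 with no background correction, 1 with the slide row as a block, 1 with the replicate block, and 0 to 2 when single arrays were left out. Over all probes the count was 513 in the main fit. It was 282 with normexp, 211 with no background correction, 1555 with the slide row and 628 with the replicate block. With the slide row as a block, 5 of all probes had an adjusted p under 0.05 in limma, and 0 of the 7 genes. The count at an adjusted p under 0.05 was 0 to 1 when single arrays were left out, the 1 being Nr0b1 without saline replicate 1. That array was the lowest for Nr0b1, so leaving it out does not test the treatment. The count whose groups did not overlap rose from 0 to 1 with no scaling between arrays. It ranged from 0 to 3 when single arrays were left out. Smaller groups separate by chance more often, so that the counts with arrays left out cannot be compared with that of the main fit. With saline replicate 1 as the lone control array, its spread was assumed to be that of the LPS arrays. A lone array falls outside the others too easily for a count to be read there. The median difference of the 7 genes, 0.12, turned to -0.79 with the slide row as a block, ranged from -0.15 to 0.41 when single arrays were left out, and lay between 0.02 and 0.50 in the other alternatives. The median level of the 7 genes had a pooled SD of 1.18 between arrays of a group, but it mixes probes whose levels cannot be compared. It does not measure the spread of the median difference, so that these moves cannot be judged by it.

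Of 140 differences of the 7 genes under 20 alternatives, 17 changed sign. With saline replicate 1 as the lone control they were -0.18 for Wt1, -0.37 for Lhx9, 1.00 for Nr5a1, 0.74 for Nr0b1 and 0.21 for Gata6, and -1.36 for the dim probe of Lhx9. With the slide row as a block they were -0.79 for Lhx9, -1.03 for Nr5a2, -0.78 for Gata4 and -0.73 for the dim probe of Nr5a2. Without scaling Gata6 was 0.29, which goes with a median of all probes of 0.34 there. The dim probe of Lhx9 was -0.12 with normexp, and with no background correction it was -0.14 and the dim probe of Nr5a2 -0.015. With arrays left out, Lhx9 ranged from -0.27 to 0.58, its dim probe from -0.55 to 0.88, Nr5a2 from -0.080 to 0.94, Gata4 from -0.070 to 0.95 and Gata6 from -0.24 to 0.20. The replicate block changed the call of Nr5a1 alone among the 7 genes. The cause of these changes was not tested. The dim probe of Zfpm2 fell from 2.11 to 0.23 with no background correction.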
